A study of Mus musculus with 9 samples.

Results

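The promoters of long noncoding RNA (lncRNA) genes that lie away from protein-coding genes were examined for H3K27ac, acetylation of histone H3 at lysine 27, in naive CD8+ T cells. A promoter was the window of 1 kb either side of the annotated 5′ end (transcription start site, TSS) of a gene. Members were the autosomal genes that GENCODE vM1, the annotation of the mm9 build, types as lincRNA or processed_transcript and whose TSS lay more than 5 kb from every protein-coding TSS. No gene there carries the type antisense. The rule took 2083 promoters out of 34653 annotated autosomal promoters, 468 of lincRNA and 1615 of processed_transcript genes. Another 1586 lncRNA promoters lay within 5 kb of a protein-coding TSS. The limit itself fell between A730032A03Rik at 5014 bp and Gm17122 at 5019 bp, the nearest members, and Gm16301 at 4981 bp and Gm17591 at 4964 bp, the nearest genes left out. Gm17122 and Gm17591 had islands in both lists, A730032A03Rik in the dKO list alone and Gm16301 in neither.

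WT mice were hCD2-Cre+ Rosa26 GFP with Tcf7+/+ Lef1+/+ alleles, and dKO mice were hCD2-Cre+ Rosa26 GFP with Tcf7 fl/fl Lef1 fl/fl alleles, so both genotypes carried the Cre and the reporter. The mice were 6 to 12 weeks of age. The hCD2-Cre transgene is most active in mature peripheral T cells, and GFP marked the cells in which it had recombined its target. GFP+ TCRbeta+ CD62Lhi CD44lo-med CD8+ cells were sorted from spleen. H3K27ac ChIP-seq was done on 4 WT and 3 dKO samples with 1 input per genotype, and the deposited data are 2 lists of enriched intervals (islands), 1 per genotype, called on pooled reads. Neither list has replicates, so no difference between genotypes could be tested, and no interval printed covers the spread between samples. Wilson and order-statistic intervals are taken over promoters, and the interval of a single ratio covers the counting error of its reads.

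A lncRNA is a transcript of some length with no long reading frame, and many are spliced and capped like messenger RNAs. Some act as RNA, some host microRNAs or small nucleolar RNAs in their introns, and for others the act of transcription or the DNA under the promoter is what is known to matter. H3K27ac marks nucleosomes at active promoters and enhancers alike, so an island over a lncRNA start can belong to its own promoter, to an enhancer or to a broad domain of a neighbouring gene. Tcf1 and Lef1 are HMG-box factors that bind DNA in T cells.

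Promoter sequences, from 250 bases before to 50 bases after the TSS in the mm9 assembly, are shown for 3 host lncRNAs with islands in both lists and for 4 members from the extremes of the comparison between genotypes. Each is written 5′ to 3′ on the strand of the gene, with CpG dinucleotides in capitals.
Snhg5 (chr9:88417672-88417971, minus strand): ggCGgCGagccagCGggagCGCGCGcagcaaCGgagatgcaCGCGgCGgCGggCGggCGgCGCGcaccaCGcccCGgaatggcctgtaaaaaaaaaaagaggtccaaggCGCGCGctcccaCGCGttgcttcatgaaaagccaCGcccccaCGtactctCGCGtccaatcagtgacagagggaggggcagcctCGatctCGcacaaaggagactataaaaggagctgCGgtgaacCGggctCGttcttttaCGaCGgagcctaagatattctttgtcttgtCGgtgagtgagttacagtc
2810008D09Rik, RefSeq symbol Snhg20 (chr11:116937854-116938153, plus strand): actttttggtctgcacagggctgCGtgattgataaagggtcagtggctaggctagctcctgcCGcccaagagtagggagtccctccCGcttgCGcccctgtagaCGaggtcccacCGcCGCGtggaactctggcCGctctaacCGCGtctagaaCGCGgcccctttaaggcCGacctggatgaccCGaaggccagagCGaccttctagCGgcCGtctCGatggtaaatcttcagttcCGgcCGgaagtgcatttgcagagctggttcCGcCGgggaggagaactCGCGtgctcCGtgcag
Dleu2 (chr14:62301113-62301412, minus strand): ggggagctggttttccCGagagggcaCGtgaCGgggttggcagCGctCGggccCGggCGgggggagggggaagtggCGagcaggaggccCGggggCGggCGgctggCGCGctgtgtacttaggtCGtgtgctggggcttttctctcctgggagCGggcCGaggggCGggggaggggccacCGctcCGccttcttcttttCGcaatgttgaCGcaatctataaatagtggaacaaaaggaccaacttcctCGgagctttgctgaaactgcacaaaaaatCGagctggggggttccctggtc
Gm13609 (chr2:31872815-31873114, minus strand): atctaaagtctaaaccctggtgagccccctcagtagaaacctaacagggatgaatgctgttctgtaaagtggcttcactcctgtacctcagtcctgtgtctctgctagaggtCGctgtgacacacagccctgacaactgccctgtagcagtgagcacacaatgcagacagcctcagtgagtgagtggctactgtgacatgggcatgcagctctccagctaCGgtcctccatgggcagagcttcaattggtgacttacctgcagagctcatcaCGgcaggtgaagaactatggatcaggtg
9230117E06Rik (chr16:22511303-22511602, plus strand): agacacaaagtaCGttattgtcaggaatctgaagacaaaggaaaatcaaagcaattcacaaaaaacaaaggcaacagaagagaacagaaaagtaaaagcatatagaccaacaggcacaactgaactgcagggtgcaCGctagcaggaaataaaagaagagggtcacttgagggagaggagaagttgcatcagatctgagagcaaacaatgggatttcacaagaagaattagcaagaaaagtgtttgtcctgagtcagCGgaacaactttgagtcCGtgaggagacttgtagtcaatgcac
Gm13203 (chr4:148087562-148087861, plus strand): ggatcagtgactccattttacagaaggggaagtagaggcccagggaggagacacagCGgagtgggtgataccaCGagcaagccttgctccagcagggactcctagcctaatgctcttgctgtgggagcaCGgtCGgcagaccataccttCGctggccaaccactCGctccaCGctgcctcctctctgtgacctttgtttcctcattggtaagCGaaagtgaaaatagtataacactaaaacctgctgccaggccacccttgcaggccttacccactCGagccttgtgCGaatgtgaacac
Gm14486 (chr2:30533482-30533781, minus strand): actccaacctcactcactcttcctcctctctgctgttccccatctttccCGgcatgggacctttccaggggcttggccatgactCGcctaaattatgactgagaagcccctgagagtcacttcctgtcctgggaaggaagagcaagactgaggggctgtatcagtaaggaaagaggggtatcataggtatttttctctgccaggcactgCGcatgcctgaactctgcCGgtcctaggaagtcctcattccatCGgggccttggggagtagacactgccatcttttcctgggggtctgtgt
The first group holds 34, 26 and 23 CpGs in 300 bases, and the second 3, 4, 10 and 5, while the median over the 2052 member windows that were read was 4. Snhg5 and 2810008D09Rik host small RNAs of the nucleolus or Cajal body in their introns and Dleu2 hosts a microRNA cluster. Gm13609 and 9230117E06Rik, inside Nup214 and Dgkg on the opposite strand, were among the largest changes each way by island counts, and Gm13203 and Gm14486 had the most counts of the members with an island in the WT list alone and in the dKO list alone. The letters ATCAAAG, a core of the sequence that Tcf1 and Lef1 bind, or their reverse complement CTTTGAT were in 1 of these windows, that of 9230117E06Rik, and in 5.36% of the 2052 windows.

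The WT list held 65563 islands with 82668007 counts and the dKO list 82213 islands with 57665047 counts. Islands covered 15.8% of autosomal bases in WT and 17.3% in dKO. Ratios of dKO to WT counts were therefore scaled by these totals. The 9 markers of naive CD8+ T cells reported (Cd8a, Cd8b1, Cd3d, Cd3e, Cd3g, Lck, Lat, Ccr7 and Il7r) had islands in both lists, of 263 to 539 counts per kb in WT. All 4 B cell, all 4 myeloid and both CD4 markers also had islands in both lists, summing to 17303, 3204 and 4874 counts in WT and 11389, 1752 and 3687 in dKO, against 184401 and 89833 for the CD8+ T cell markers, with an island shared by several markers counted for each, and of the NK cell markers Klrb1c and Eomes had islands in both lists and Ncr1 in neither. Eomes is not particular to NK cells here, as the paper reports its RNA and protein in CD8+ T cells. The part of other cells in the results was not tested. Island lists cannot show whether the floxed exons of Tcf7 and Lef1 were deleted.

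A minority of the lncRNA promoters carried H3K27ac in either list. An island overlapped 843 members in WT (40.5%, 95% Wilson interval 38.4 to 42.6) and 894 in dKO (42.9%, 40.8 to 45.1), against 51.1% and 52.3% of all annotated promoters. Both lists had an island at 758 members (36.4%) and neither at 1104 (53.0%). Protein-coding promoters had islands in both lists at 59.6%, and lncRNA promoters within 5 kb of one at 65.1%. Since a TSS base of a member lay in a WT island in 36.8% of cases while islands covered 15.8% of autosomal bases, the members carried the mark more often than bases at large and less often than protein-coding starts (60.5%).

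**Figure D1:**
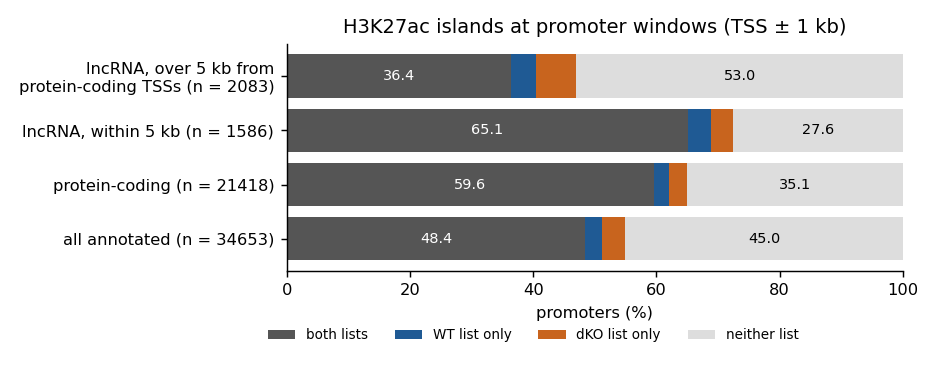
Share of promoters (horizontal axis, %) with an H3K27ac island in both lists, in the WT list only, in the dKO list only or in neither, for 4 groups of promoters. Distant lncRNA promoters had islands in both lists at 36.4% and in neither at 53.0%, against 59.6% and 35.1% for protein-coding promoters.

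The share of members with an island was lower far from protein-coding genes, and so was the share of islands that ran on into a protein-coding promoter. In WT, 54.2% of the 349 members 5 to 10 kb from the nearest protein-coding TSS had an island (48.9 to 59.3), and 19.6% of the 397 members more than 100 kb away (16 to 23.8). The dKO list gave 57.6% and 19.6%. Between these ends, WT shares were 46.7% at 10 to 20 kb, 41.8% at 20 to 50 kb and 40.7% at 50 to 100 kb. The WT island ran on into a protein-coding promoter at 73 of the 189 members with one at 5 to 10 kb. From there outward it did so at 41 of 202, 12 of 238, 2 of 136 and 0 of 78. The part of such shared islands in the fall with distance was not tested. The state of the neighbour went with that of the member: where the nearest protein-coding promoter had a WT island, 649 of 1084 members had one too (59.9%, 56.9 to 62.7), and where it had none, 194 of 999 (19.4%, 17.1 to 22.0). The 128 members whose WT island ran into a protein-coding promoter were kept in this count. For these, 1 island can stand for both member and neighbour, so part of the agreement is built in. Genes typed lincRNA had WT islands at 53.6% and processed_transcript genes at 36.7%, intervals 49.1 to 58.1 and 34.3 to 39.0. Members inside a protein-coding gene on its opposite strand, 640 in all, had WT islands at 38.3%, close to the 41.0% of the 1316 intergenic members. Wherever a member is placed inside a protein-coding gene, its TSS is meant.

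CpG content separated the members further. Only 63 of them (3.02%) were CpG-rich, defined over the 2 kb window as an observed to expected CpG ratio of at least 0.6 with at least 50% GC, against 30.5% of protein-coding promoters. Of these 63, 47 had a WT island (74.6%, 62.7 to 83.7) and 48 a dKO island, while the 2020 other members had a WT island at 39.4% (37.3 to 41.5). Where both lists had one, the WT islands of CpG-rich members held a median of 344 counts per kb over 5.6 kb, and those of the others 179 counts per kb over 10.4 kb. CpG-rich protein-coding promoters reached 398 counts per kb. ATCAAAG or its reverse complement was in the 2 kb window of 27.4% of members and of 26.0% of all annotated promoters. It was in 25.5% of members with islands in both lists, 21.2% with a WT island only, 23.5% with a dKO island only and 29.6% with neither.

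**Figure D2:**
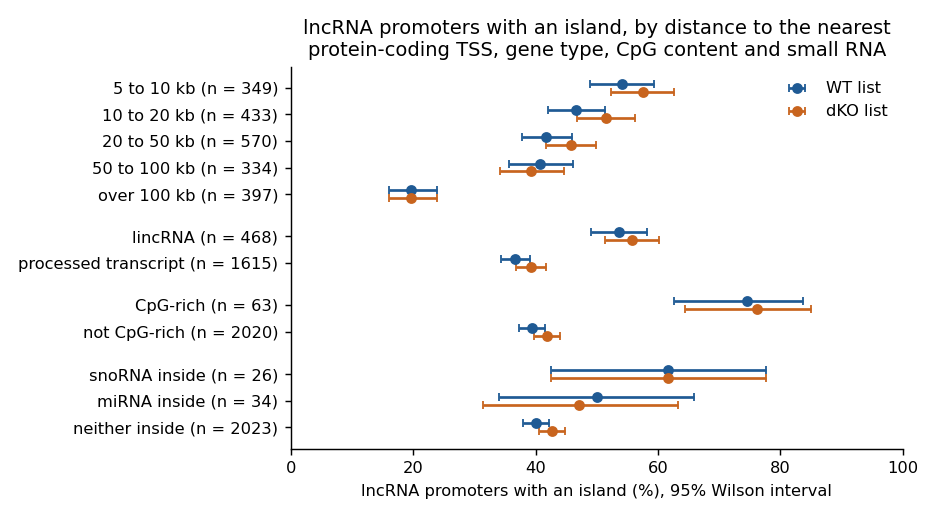
Share of lncRNA promoters with an island (horizontal axis, %) in the WT (blue) and dKO (orange) list, by distance to the nearest protein-coding TSS, gene type, CpG content and small RNA genes inside the body. Points are shares and bars 95% Wilson intervals, which lie at 48.9 to 59.3% for WT at 5 to 10 kb and at 16 to 23.8% beyond 100 kb.

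Islands at lncRNA promoters were broad and of low density. At the 758 members with islands in both lists the median WT island span was 9.8 kb with 1898.5 counts, 185 per kb. The protein-coding median was 6.6 kb with 2380 counts, 317 per kb. In dKO the members had a median of 10.2 kb, 1289 counts and 130 counts per kb. At 197 members an island of either list ran on into a protein-coding promoter. Of these, 174 belonged to the 758, and their WT islands spanned 25.7 kb at the median. For the other 584 of the 758 the value was 7.6 kb. An island must be wide to reach a protein-coding promoter whose TSS lies more than 5 kb away, so this contrast is at least partly built in. The part of shared domains in the width was not tested. Altogether the 979 members with any island lay in 936 merged regions, formed by joining islands of the 2 lists that overlapped, and 145 members shared a region with another, up to 5 in 1 region. Promoters in 1 region are not separate measurements.

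The abundant nuclear lncRNAs Malat1 and Neat1 carried broad islands of close to equal scaled totals in the 2 genotypes. Malat1 (chr19:5795690-5802671, minus strand), a nuclear speckle RNA, had 11957 counts over 30.8 kb in WT and 8064 over 34.8 kb in dKO, which scaled to a log2 ratio of -0.05 (95% counting interval -0.09 to -0.01). Neat1 (chr19:5824708-5845478, minus strand), the scaffold of paraspeckles, had 20293 counts over 53 kb and 14158 over 59.4 kb, log2 ratio 0.00 (-0.03 to 0.03). Counts per kb were lower in dKO at both, by log2 ratios of -0.22 and -0.16. Miat (chr5:112642248-112657968, minus strand), another nuclear RNA, had 3320 counts over 17.8 kb in WT and 3890 over 30.4 kb in dKO, or 0.75 on the log2 scale and -0.024 per kb. Its island was wider in dKO at close to the same scaled density.

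Several host genes of small RNAs had narrow and dense islands. Mir17hg (chr14:115442101-115445949, plus strand), host of the miR-17 cluster, had 3692 counts over 3.8 kb in WT and 1674 over 3.0 kb in dKO, the densest WT island among the well-known members at 972 counts per kb. Its log2 ratio was -0.62 (-0.70 to -0.54), and -0.28 per kb. Snhg5 (chr9:88415894-88417721, minus strand) had 1237 counts over 4.4 kb and 650 over 4.0 kb, log2 ratio -0.41 and -0.27 per kb. Snhg4 gave -0.70 and -0.26 per kb, and Snhg12 gave -0.26 and 0.16 per kb, the latter in the other direction. Snhg7 gave 0.15 and -0.21 per kb. Altogether 26 members held an annotated small nucleolar or Cajal body RNA gene on their own strand, and 15 of them had islands in both lists, with median log2 ratios of -0.26 by counts and -0.30 per kb. The 34 members with a microRNA gene inside had islands of both lists at 16, with medians of -0.65 by counts and 0.04 per kb.

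Among the snoRNA and Cajal body RNA hosts the density differed most at 2810008D09Rik, from 1819 counts over 3.0 kb in WT to 1432 over 9.0 kb in dKO. The log2 ratio was 0.17 by counts and -1.41 per kb, and the dKO island was 3 times as wide. Gm11974 (RefSeq symbol Snhg15), 2410006H16Rik and 1110038B12Rik likewise had dKO islands of 15.8, 16.2 and 24.8 kb against 4.4, 9.6 and 2.6 kb in WT, and per-kb ratios of -0.86, -0.50 and -1.19. Gm11775, near Cd7, was the exception among the 4 snoRNA hosts with the most counts, with a per-kb ratio of 0.59. Of the snoRNA and Cajal body RNA hosts with islands in both lists, 5 had a dKO island at least 1.5 times wider, these 4 and 9430008C03Rik (3.6 and 7.6 kb), and at all 5 the count ratio was above 0 and the per-kb ratio below it. Of the microRNA hosts, 4 had one, with 4 count ratios above 0 and 3 per-kb ratios below it. At Gm16724, the exception, the per-kb ratio was 0.077. Choosing hosts by width bears on both signs, since counts followed width and the per-kb ratio divides by it. The same count over all widened members is not given, so no trait of hosts is drawn from these signs.

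Other well-known members showed how much the outcome turned on where an island ended. Dnm3os (chr1:164147754-164155681, plus strand), inside Dnm3 on the opposite strand and host of a microRNA pair, had 3770 counts over 15.4 kb in WT and 653 over 7.6 kb in dKO in islands that met the window, a log2 ratio of -2.01. Over the whole merged region the dKO list held 2170 counts over 15.8 kb and the ratio was -0.28. Dleu2 (chr14:62238318-62301162, minus strand) gave -0.68 by counts, 0.36 per kb and -0.25 over the merged region. Airn (chr17:12934177-13052988, plus strand), the imprinted antisense transcript of Igf2r, gave -0.95 by counts, 0.37 per kb and 0.04 over the merged region. 2610307P16Rik, near Sox4, gave 2.2, -0.36 and 0.29. For Gm14005 (RefSeq symbol Morrbid), a lncRNA at the Bcl2l11 locus, 4445 counts over 24.8 kb in WT and 4877 over 35.2 kb in dKO gave 0.65, 0.15 per kb and 0.22 over the region. Pvt1 (chr15:61869542-62209651, plus strand), next to Myc, had 7140 counts over 34.6 kb and 6409 over 47.4 kb, which gave 0.36, -0.09 and -0.06. The imprinted genes H19, Meg3 and Mirg, the neural lncRNA Rmst, and B230112J18Rik had no island in either list.

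**Figure D3:**
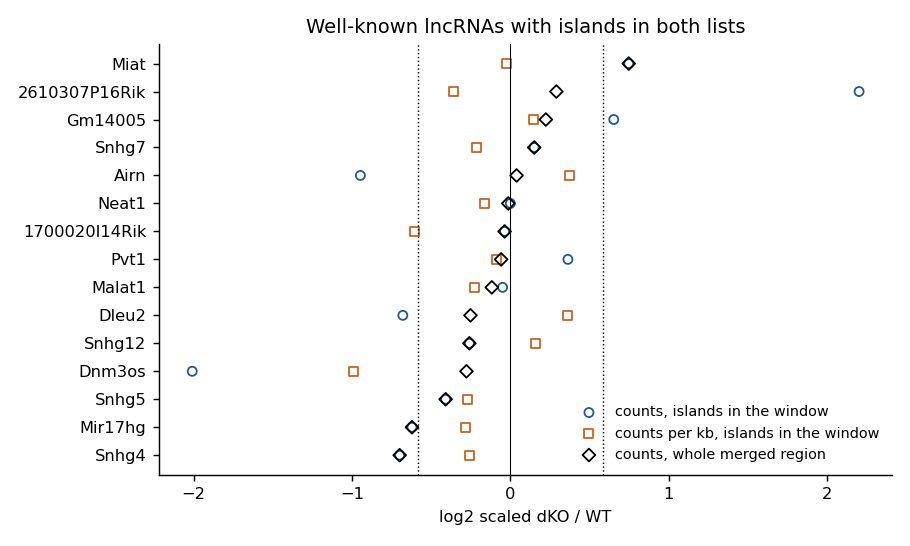
Scaled log2 ratio of dKO to WT (horizontal axis) for the 15 well-known lncRNAs with islands in both lists, by counts of the islands that touch the window (circles), by their counts per kb (squares) and by counts over the whole merged region (diamonds), with dotted lines at a ratio of 1.5 either way. The circles run from -2.01 (Dnm3os) to 2.2 (2610307P16Rik), and the diamonds from -0.70 (Snhg4) to 0.75 (Miat).

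Across the 758 members that had islands in the 2 lists, dKO and WT were close at the centre, with medians of -0.05 by counts (SD over promoters 1.09) and -0.0061 per kb (SD 0.33) on the log2 scale. Scaled by the totals of regions present in both lists, the median by counts turned to 0.017. By counts, 177 members were at least 1.5 times higher in dKO (23.4%) and 174 at least 1.5 times lower (23.0%), against 13.7% and 20.6% of all annotated promoters. By counts per kb only 18 were higher and 43 lower, against 2.74% and 16.1% of all promoters. The count ratio followed the width ratio (Spearman's rho 0.94 over 758 promoters, described without a test because both measures share the island borders). Of the members higher by counts the median log2 width ratio was 1.23, and of those lower it was -1.24. The dKO islands were at least 2 times wider at 121 members and at least 2 times narrower at 117, against 13.2% and 10.8% of all promoters. The per-kb ratio had the other sign at 71 of the 177 and at 93 of the 174, and 12 and 13 members were called in the same direction by both measures. The same counts over all promoters are not given. Where both islands had the same width, at 36 members, the log2 ratio had a median of -0.09 and ranged from -0.59 to 0.37.

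**Figure D4:**
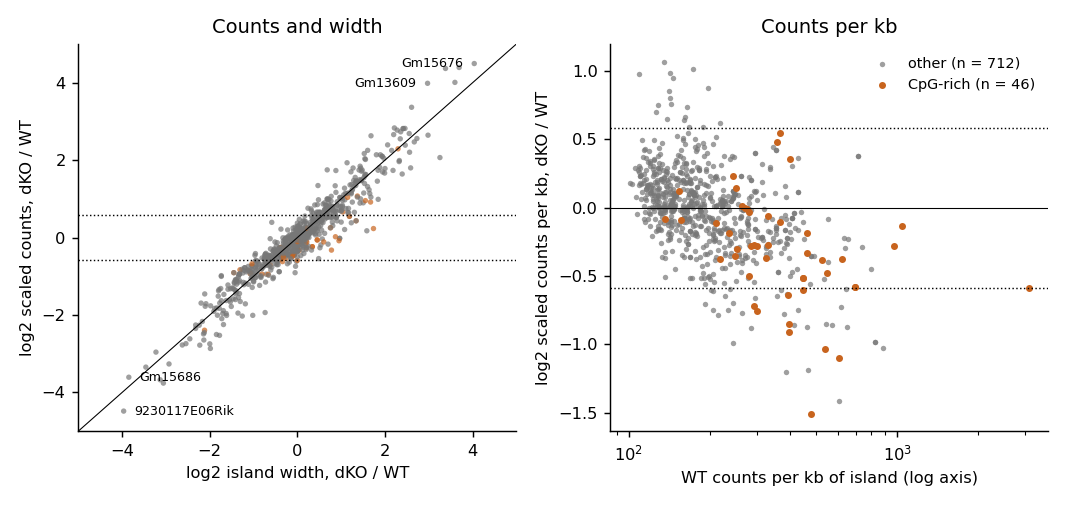
Left, scaled log2 count ratio of dKO to WT against log2 width ratio for the 758 lncRNA promoters with islands in both lists (orange, CpG-rich), with the line of equality and dotted lines at 1.5 times either way. Right, scaled log2 ratio of counts per kb against WT counts per kb on a log axis, where the 46 CpG-rich promoters had a median of -0.29 and the 712 others 0.00.

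Most of these window-level differences shrank over whole regions, as they did over all annotated promoters. Of the 177 members higher in dKO, 48 stayed at least 1.5 times higher when all islands of the merged region were summed, with a median log2 ratio of 0.28. Of the 174 lower members, 61 stayed lower, with a median of -0.29. Over all annotated promoters, 529 of 2293 stayed higher and 1461 of 3457 stayed lower, so the shrinking was not particular to the members. Over merged regions with islands of both lists, 844 members had a median of 0.0063 and an SD of 0.55, and 76 were higher and 85 lower, against 4.37% and 9.59% of all annotated promoters. The smaller number of counts in the dKO pool, the number of samples pooled and the genotype cannot be told apart as sources of a joined or broken island.

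The 6 largest increases by counts were Gm15676, Phgr1, Gm16196, 4930557C09Rik, Gm13609 and Gm9918, with log2 ratios of 3.37 to 4.49. At Gm15676, intergenic near Fam57b, the window met 872 counts over 4.8 kb in WT and 13713 over 78.8 kb in dKO (log2 ratio 4.49), while the merged region held 19929 WT and 14725 dKO counts (0.08). At Gm13609 the window met 1776 counts over 10.2 kb and 19608 over 80 kb (3.98), and the region 32919 and 23035 (0.00). Over merged regions the 6 ratios lay between 0.00 and 0.38, the highest at Phgr1, a symbol that RefSeq gives to a protein-coding gene. At each of the 6 the dKO island at the window overlapped 2 to 6 WT islands, and all 6 dKO islands reached a protein-coding promoter.

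The 6 largest decreases were 9230117E06Rik, Gm14437, Gm11959, Gm15686, Gm15423 and Gm11754, with log2 ratios of -4.48 to -3.27. At 9230117E06Rik (chr16:22511553-22517754, plus strand) the window met 4296 counts over 25 kb in WT and 134 over 1.6 kb in dKO (-4.48, counting interval -4.73 to -4.24). Its merged region held 4296 and 2345 counts over 25 and 24.2 kb (-0.35), with 4 dKO islands over the WT island. At the other 5 the WT island at the window overlapped 3 dKO islands. Gm15686, inside Sox5, had 2080 counts over 14.4 kb in WT and 119 over 1.0 kb in dKO (-3.61), and its region 2080 and 1363 (-0.09). Gm14437, inside Slc13a3, and Gm15423, inside Sdccag8, kept -0.95 and -0.91 over their regions. Gm11959, near Lif, kept -0.58 and Gm11754 gave 0.03.

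**Figure D5:**
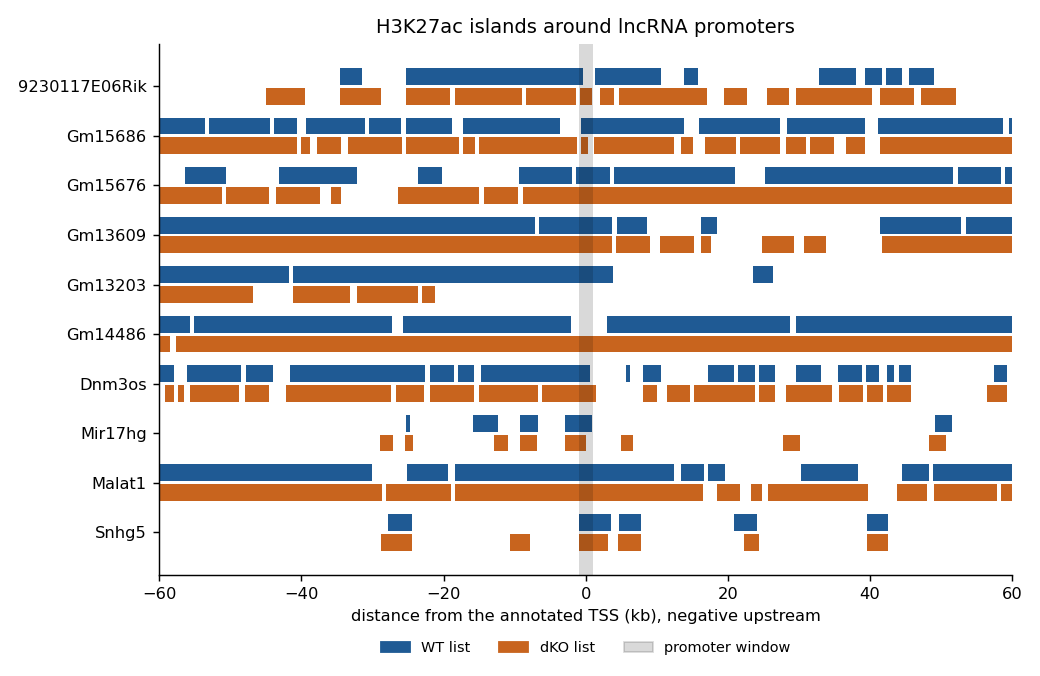
Islands of the WT (blue) and dKO (orange) list within 60 kb of 10 lncRNA starts, drawn by distance from the TSS in kb (negative upstream), with the promoter window shaded. At Gm15676 and Gm14486 a dKO island ran through where WT islands were separate, at 9230117E06Rik and Dnm3os the dKO islands were broken, and Mir17hg and Snhg5 had islands of 3.0 to 4.4 kb at the window in both lists.

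A few members had ratios of the same sign by counts, per kb and over the merged region. Where each list had only 1 island in the region, the window and region ratios are the same number, so their agreement is built in. A630023P12Rik, intergenic near Galnt9 (chr5:110943942-110954999, plus strand), had 3050 counts over 12.8 kb in WT and 550 over 5.0 kb in dKO, which made the log2 ratio -1.95 (-2.08 to -1.82) and -0.60 per kb, and each list had 1 island in the region. Gm11674 (chr11:111657661-111662190, minus strand) had 774 counts over 2.0 kb and 141 over 1.2 kb, which made it -1.94 (-2.2 to -1.68) and -1.20 per kb, also with 1 island each. The island of Gm11674 was far from any protein-coding start, with 630760 bp to the nearest. In the other direction, Gm13481 had 393 counts over 3.6 kb and 360 over 2.4 kb at the window (0.39, 0.98 per kb) and 393 and 558 over its region (1.03). Its count ratio at the window was under 1.5 times. Gm15341, the largest increase per kb at 1.07, came to 0.08 over its region. Ttc28, the largest decrease per kb at -1.50, is a symbol that RefSeq gives to a protein-coding gene and had 1146 counts over 2.4 kb in WT and 939 over 8.0 kb in dKO. Its direction changed with the measure, as the log2 ratio was 0.23 by counts and -0.11 over its region. By name, A630023P12Rik, Snhg4, Snhg7, Pvt1, Neat1, Gm15408, Gpr137b-ps and 1500017E21Rik also stand in the study's lists of transcripts that differed between the genotypes. For the last 4 the merged log2 ratio was -0.01 at Neat1, 0.08 at Gm15408 and -0.09 at Gpr137b-ps, and 1500017E21Rik had no island.

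An island in the WT list alone was found at 85 members (4.08%, 3.31 to 5.02) and in the dKO list alone at 136 (6.53%, 5.55 to 7.67), against 2.71% and 3.86% of all annotated promoters. Such islands were weaker than the rest, with a median of 469 counts over 4.0 kb in WT only and of 392.5 counts over 4.4 kb in dKO only. At 33 of the 85 and 53 of the 136 the other list had an island in the same merged region beyond the window, which left 52 and 83 with none. Of the members where no island of either list ran into a protein-coding promoter, 82 had an island in the WT list only and 116 in the dKO list only. Neither split is given for all annotated promoters, so no trait of the members is drawn from these counts. No fold is given at these windows, since a window without an island has no count.

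The 5 strongest islands in the WT list only lay at Gm13203 (8143 counts over 45 kb), Gm16896 (6774 over 37.8 kb), Gm14495 (4691 over 25 kb), Gm13441 (3885 over 23 kb) and 1700058G18Rik (3662 over 24.8 kb). In every one of the 5 the dKO list had islands elsewhere in the region, with 2267, 2596, 2777, 1708 and 753 counts. The merged log2 ratios ran from -1.76 at 1700058G18Rik, inside Kcnmb4, and -1.33 at Gm13203, near Gm572, to -0.24 at Gm14495. RefSeq gives the symbol 1700058G18Rik to the protein-coding gene Kcnmb4 itself, though the annotation used here places it on the opposite strand. The map of islands shows the WT island of Gm13203 reaching across the TSS from upstream and the dKO islands ending before it. The 5 strongest in the dKO list only lay at Gm14486 (28127 counts over 153.2 kb), Gm15775 (14638 over 56.6 kb), Gm16287 (8882 over 49.6 kb), 9930038B18Rik (7426 over 52.2 kb) and Gm12868 (7327 over 41.4 kb). WT counts in the same regions were 38660, 16373, 16203, 4804 and 9709. Only 9930038B18Rik, near Laptm4a, was past 1.5 times over the region (1.15), and the other 4 lay between 0.08 and 0.36.

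The most counts of all fell on members inside broad islands at protein-coding genes. A630014C17Rik and Gm16953 have their TSS inside Tcf7, the gene of Tcf1 that is floxed in the dKO mice, and shared 1 WT island of 50113 counts over 70 kb and 1 dKO island of 18207 over 28 kb. Their log2 ratio was -0.94 at the window and 0.15 over the region, which held 63567 WT and 49281 dKO counts. Gm17670, inside Zmiz1, had 43578 counts over 147.8 kb and 42494 over 219.2 kb (0.48, region 0.07). Gm11738, inside Dnahc17, had 22824 over 54 kb and 52972 over 245.2 kb (1.73, region 0.15). Gm11712, Gm11713 and Gm11714, inside Pitpnc1, shared 1 island per list, of 36392 counts over 90 kb and 24462 over 91.6 kb (-0.05 both ways). Gm15558 and Gm17410 shared a region near Clec16a that gave 0.72 at each window and -0.08 over the region, and C030014I23Rik gave 0.53 and -0.13. Each of these islands reached a protein-coding promoter in at least 1 list.

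Density by itself gave a pattern tied to CpG content. The 46 CpG-rich members that had islands in the 2 lists showed a median per-kb log2 ratio of -0.29 (order-statistic 95% interval -0.48 to -0.14), with 39 of the 46 below 0, and the 712 others a median of 0.00 (-0.02 to 0.02). CpG-rich protein-coding promoters gave -0.30, with 4235 of 5437 below 0, and other protein-coding promoters -0.14. Among all annotated promoters with islands in both lists, 11418 of 16777 were below 0. The per-kb ratio also went with WT density: from the lowest to the highest of 4 equal groups by WT counts per kb, its median was 0.11, 0.06, -0.08 and -0.22, a description in which both measures share the WT counts. Since CpG-rich members were also the denser ones, CpG content and density cannot be told apart here. The nearest protein-coding promoter of a member did not carry the same per-kb ratio. For 409 members on islands of their own, Spearman's rho between the per-kb ratios of member and neighbour was 0.01, with medians of 0.01 and -0.14. Between their count ratios rho was 0.12.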

How the data were processed

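H3K27ac ChIP-seq data of 4 WT and 3 dKO samples were used as 2 deposited island lists, and the inputs, 1 per genotype, which have no list, were not analysed here. According to the submitters' processing notes and the methods, the authors aligned reads with Bowtie2 2.2.5 to mm9, kept reads of mapping quality above 10, pooled replicates per genotype and called islands with SICER 1.1 at an FDR below 0.01 with windows of 200 bp and gaps of 400 bp, after FastQC. Removal of duplicates is not given in the sources used here. The deposited counts are whole numbers of reads per island, made by the authors and not scaled for depth or width. An island exists only where it passed the caller, so a window without one has no count.

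Promoter sequence was read from the mm9 (NCBIM37) genome, and the 300 base windows left out chromosome 18. Islands sharing at least 1 bp with a promoter window were summed per list. The log2 ratio of dKO to WT counts was scaled by the totals of each list, and 1.5 times either way was called a difference. Counts per kb were counts over island width. Merged regions joined overlapping islands of both lists. Named members were well-known lncRNAs from a list of 49 names (20 are members, 6 lie within 5 kb of a protein-coding TSS, 4 are annotated as protein-coding), the strongest, the largest changes with at least 200 counts, those in 1 list only, those at the distance limit, those in the study's lists of changed transcripts (names only) and small RNA hosts. Members and lists were chosen with earlier results of these data known. Symbols of 1081 members matched RefSeq, 141 of them as protein-coding genes or pseudogenes. Python 3.11.15, pandas 2.3.3, numpy 2.4.6 and scipy 1.17.1 were used, and the calculation was checked on simulated data. Alternatives covered the window, overlap, distance, TSS, islands, scaling, measure and fold called. 1 marker gene is not reported here.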

Additional observations from a re-analysis of the deposited data

How the results depend on the processing

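No paired analysis was possible because the deposited lists pool the replicates of a genotype and hold no value per sample, and for the same reason no replicate could be left out. Of the alternatives for the main results, 78 values stayed within 1.5 times the main count or, for medians, within the order-statistic interval over promoters, and 17 moved. Of those for single members, 479 stayed within the counting interval, 115 moved and 19 reversed. With islands that reach a protein-coding promoter dropped, 130 members had an island in the WT list only, a count that the dropping itself raises where it removes the dKO island, and without such members it was 82. Over merged regions, 52 were in WT only, 83 in dKO only, 76 higher and 85 lower, the median log2 ratio was 0.0063 and the per-kb median of members that are not CpG-rich was -0.025. Scaling by shared totals or by the median ratio, a shift of 0.071 or 0.073, moved the median to 0.017 or 0.019 and that per-kb median to 0.073 or 0.075. By counts per kb the median was -0.0061, with 18 higher and 43 lower. A fold of 2 left 100 higher and 98 lower, and the counts at that fold over all promoters are not given. Counting windows of 1 list with pseudocounts gave 313 higher. That count takes in the windows with a dKO island only, which are called higher by construction. Windows with a WT island only are called lower in the same way, so no excess in dKO is read from it. Among named members past 1.5 times at the window, directions turned over merged regions at A630014C17Rik and Gm16953 (0.15), Gm11754 (0.028), Airn (0.040), and Gm15558 and Gm17410 (-0.076), whose islands are split differently by construction. Among the same members they turned per kb at Gm15423 (0.11), E130102H24Rik (0.54), Miat (-0.024), Gm15686 (0.24), Gm11974 (-0.86), A630014C17Rik and Gm16953 (0.38), Gm11738 (-0.45), 2610307P16Rik (-0.36), Dleu2 (0.36), Gm17410 (-0.28), Airn (0.37) and 1110038B12Rik (-1.19). Using 1 promoter per region, or leaving out symbols that RefSeq gives to protein-coding genes or pseudogenes, both chosen after seeing the data, moved none of the main values.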

Other observations

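Members with the largest differences over merged regions were looked up after their values were seen, so the values are given as a description with no test. The lowest log2 ratios were -2.45 at Gm17173, near Ptger2, which had 1 island of 1311 counts over 9.6 kb in WT and of 167 over 2.2 kb in dKO, and -2.17 at 4933415D12Rik, inside Sox5, with 657 counts in WT and 102 in dKO. Gm14424 and Gm14426, noncoding genes of the Hoxd cluster, shared a WT island of 954 counts over 6.6 kb that covered both windows, and the dKO list had 151 counts over 1.2 kb elsewhere in that region (-2.14). The highest were 2.37 at Gm15548, inside Ampd3, with 272 WT and 978 dKO counts, and 2.61 and 1.95 at Gm15337 and Gm15336, both at Arhgap26, with 251 and 562 WT counts against 1068 and 1510 in dKO. Their per-kb ratios stayed between -0.33 and 0.32.

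Among members with an island, 2610005L07Rik had the highest density in both lists, 3089 counts per kb in WT and 1432 in dKO over 1000 bp, a per-kb log2 ratio of -0.59.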
